A study of Mus musculus with 7 samples.

Results

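The genes described here are 32 genes that cycling cells use in S phase for work other than loading the replicative helicase onto origins. They were chosen by symbol from a list of names that was drawn up with earlier results of these data known. All 32 were found in the deposited table of 16760 genes, each on 1 row. RNA sequencing was done on mouse CD150-negative cells of strain C57/B6 whose labels give the cell type as HSC (haematopoietic stem cell), in 4 libraries of wild-type (WT) mice and 3 of mice that carry a chromosome 5 deletion (genotype 5G2del; the band is syntenic to human 7q22). The gene for CD150 is Slamf1, and a CD150-negative gate leaves out stem cells that carry that protein. Age, sex, the deletion's ends and zygosity and the sort's other markers are not given in the sources here. The table's column names give a library's group and a serial number that stands in no sample's label, so libraries carry letters in column order, A to C for 5G2del and A to D for WT. No label ties each library to an animal of its own, so each p-value reflects only how these libraries vary, and part of that may be technical.

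In S phase the genome is copied at forks that start from licensed origins. The helicase of the fork (CDC45, MCM and GINS proteins) opens the duplex, DNA polymerase alpha with its primase starts each strand, the sliding clamp PCNA tethers the polymerases, and the flap nuclease FEN1 trims the Okazaki fragments. Ribonucleotide reductase and thymidylate synthase supply deoxynucleotides, histone chaperones wrap the new DNA, and many of these genes are transcribed by E2F factors once cyclin E and CDK2 have inactivated RB. Stem cells of adult marrow are mostly quiescent, whereas the progenitors below them cycle often, so the level of these transcripts in a sorted pool varies with the share of cells in S phase. In bulk RNA, fewer cells in S phase and less RNA per cell cannot be told apart.

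E2F factors bind a short GC-rich element that many S phase promoters carry, so promoter windows were searched for it. RefSeq promoter windows (GRCm38.p6, which is mm10; 250 bases before to 50 after a transcript start) were found for 26 of the 32 members, in 30 windows. The letters TTTCGCGC, TTTGGCGC, TTTCCCGC or TTTGCCGC, on either strand, were present in 9 of the 30 windows (30.0%), from 9 genes (Casp8ap2, Cdca7, Clspn, Dtl, E2f2, Hells, Pola1, Ubr7 and Uhrf1), against 2.26% of all 32851 windows. The letters CCAAT, on either strand, were present in 19 of the 30 windows (63.3%), against 37.4% of all windows, and 7 windows held both motifs (23.3% against 0.962%). CCAAT and the E2F-type letters can share end letters, each was counted on its own, and a match is a description of the letters, not of a bound site. Ccne2, Gins2, Gmnn, Rfc2, Tipin and Usp1 are named only.

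The 200 bases before the start are shown for Uhrf1 (chr17:56304113-56304312, plus strand, the later of its 2 starts), Hells (chr19:38930790-38930989, plus strand), Dtl (chr1:191575545-191575744, minus strand) and Pola1 (chrX:93632156-93632355, minus strand), the members of those whose expression is given in full below that hold an E2F-type match there. They are read 5′ to 3′ along the gene's strand and capitals mark the match, which in Pola1 lies on the other strand.
Uhrf1: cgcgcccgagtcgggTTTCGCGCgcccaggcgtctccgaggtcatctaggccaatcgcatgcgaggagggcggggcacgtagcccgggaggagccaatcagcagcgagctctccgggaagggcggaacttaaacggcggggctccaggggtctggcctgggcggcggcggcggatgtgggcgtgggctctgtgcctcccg
Hells: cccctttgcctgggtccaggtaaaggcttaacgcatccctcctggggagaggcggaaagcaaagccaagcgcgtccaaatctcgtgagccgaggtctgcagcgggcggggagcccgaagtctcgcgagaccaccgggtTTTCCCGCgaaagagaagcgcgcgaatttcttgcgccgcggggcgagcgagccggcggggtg
Dtl: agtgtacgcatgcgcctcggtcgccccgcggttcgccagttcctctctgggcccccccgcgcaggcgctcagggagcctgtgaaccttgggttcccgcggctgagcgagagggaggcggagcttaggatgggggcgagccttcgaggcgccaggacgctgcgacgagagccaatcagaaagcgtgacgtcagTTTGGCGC
Pola1: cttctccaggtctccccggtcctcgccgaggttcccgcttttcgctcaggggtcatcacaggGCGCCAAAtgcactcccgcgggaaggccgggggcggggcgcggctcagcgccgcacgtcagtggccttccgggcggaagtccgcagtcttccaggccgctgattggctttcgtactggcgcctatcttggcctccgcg
The match lay 185 to 178 bases before the start in Uhrf1, 62 to 55 bases before it in Hells, 138 to 131 bases before it in Pola1, and in the last 8 bases before it in Dtl. In Clspn it lay after the start, and that stretch is not shown.

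As a check of the labels, 2 chromosome 5 genes lay lower in every 5G2del library than in every WT library: Cux1 at 6.80 to 8.01 log2 CPM against 8.17 to 8.59, and Trim56 at 4.51 to 5.14 against 5.84 to 6.14. Expected counts over the listed genes ran from 37930174 to 52194274 per library. WT-B stood apart, with 1104 genes listed at 0, where the others had 83 to 492. The 2 mitochondrial ribosomal RNA genes took 22.9% to 27.8% of these counts in 5G2del and 25.3% to 33.4% in WT (exact permutation test, two-sided, p = 0.171; 0.0286 is the smallest p that 35 splits allow). Stem and progenitor markers such as Kit, Cd34 and Flt3 were in the table for 11 of 11, with a summed level of 1982 to 2138 CPM in 5G2del and 1915 to 2347 in WT.

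Across the 32 members the means were mostly higher in 5G2del, with groups that overlapped for most of them. Values are log2 CPM (CPM is the count scaled to the library size that the deposited values imply). Those sizes were not the listed counts: 34865420 against 42038974 in WT-C and 41220903 against 47664360 in 5G2del-C. In each other library the implied size was above the listed counts. Fold changes are 5G2del over WT on the log2 CPM scale, and single genes were tested with limma-trend over all 16760 genes. The mean was higher in 5G2del for 29 members and lower for 3 (Ccne1, Pola1 and Ccne2), where 53.3% of all genes had a higher mean. Log2 fold changes ran from -0.13 to 0.97 with a median of 0.25 (quartiles 0.12 and 0.41), beside a median of 0.03 over all genes. No member passed an adjusted p of 0.05 (limma-trend, lowest adjusted p among members 0.989), and 0 of 16760 genes did (0%). At an unadjusted p under 0.05 there were 3 members, Prim1, Uhrf1 and E2f1, all higher, where 1.68% of all genes were higher and 2.24% lower by that rule. The same 3 are under an unadjusted 0.05 in the authors' deposited table. That fit used the same libraries and log2 CPM, so it is no independent check. Groups did not overlap for 2 members, Prim1 and Hells, both higher, where 2.92% of all genes were apart as higher and 2.78% as lower. With fewer libraries to separate, these shares grew for all genes: without WT-A, 9 members were apart as higher where 5.27% of all genes were, and without 5G2del-A 6 were, where 7.23% of all genes were.

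The count of 3 came to 0 without 5G2del-B, 0 without WT-C, 0 without the trend, and 0 when CPM were recomputed without the mitochondrial ribosomal RNA genes. That recomputation divides by the listed counts of the other genes, so it also drops the library sizes behind the deposited CPM. The effects of these changes cannot be told apart. The median of 0.25 was 0.14 without WT-C, with 24 members higher, and 0.17 under that recomputed CPM, where the median of all genes was -0.05 and 27 members were higher. The median of the members stayed above that of all genes in each of the 14 alternatives run, by 0.11 (without WT-C) to 0.30 (without WT-A). That difference could not move from 0.22 under the recomputed CPM, with libraries centred on their medians, or without the trend. These shift every gene of a library alike or leave fold changes unchanged, so they do not test it.

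**Figure D1:**
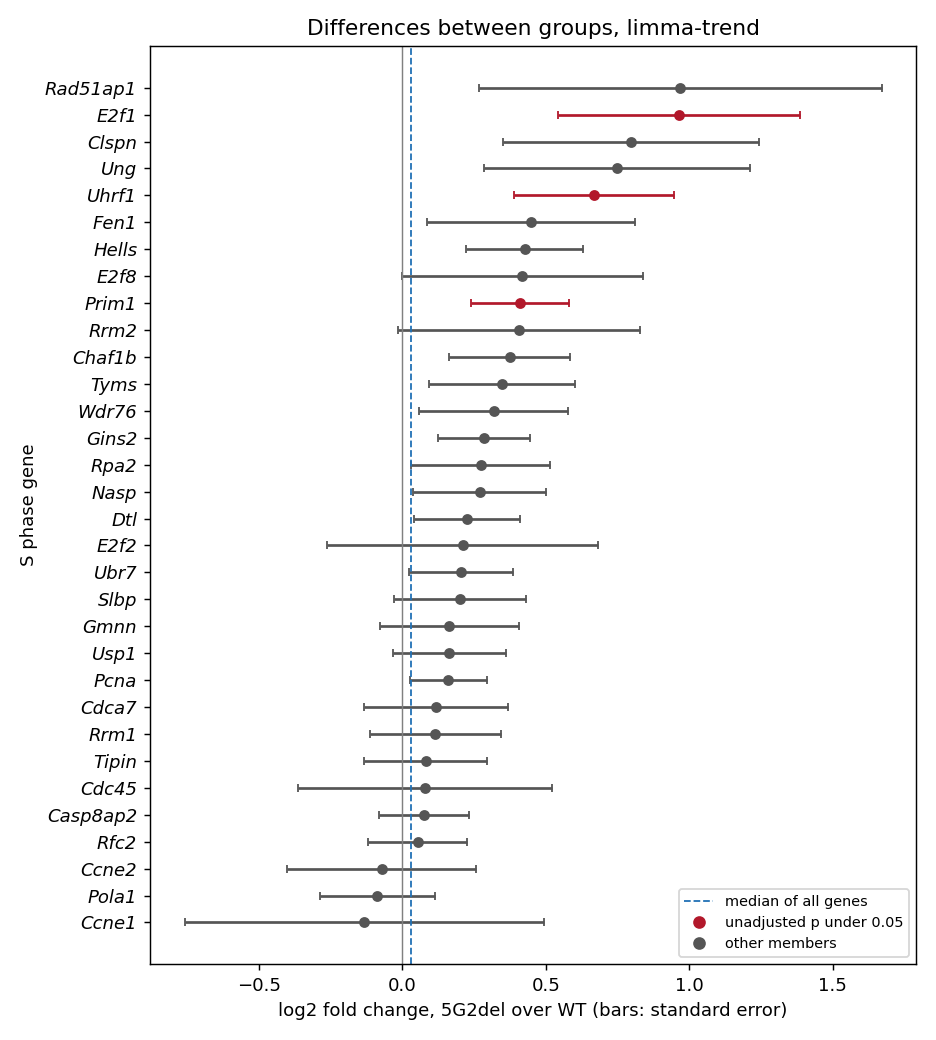
Log2 fold change of each S phase gene, 5G2del over WT (x axis; points, with bars for the standard error from limma-trend), ordered by size. Points lie from -0.13 (Ccne1) to 0.97 (Rad51ap1), 29 of 32 to the right of 0, and the dashed line marks the median of all genes at 0.03.

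The mean over the 32 members was 4.91, 5.04 and 4.76 log2 CPM in the 5G2del libraries A to C, and 4.94, 4.54, 4.18 and 4.73 in the WT libraries A to D. Values of single genes follow this order of libraries throughout. That is 4.90 ± 0.14 (SD, n = 3) in 5G2del and 4.60 ± 0.33 (SD, n = 4) in WT. The groups overlapped: WT-A lay above 5G2del-A and 5G2del-C, and WT-C was lowest. WT-C was the lowest of the 7 libraries for 19 of the 32 members and WT-B for 10, while 5G2del-B was the highest for 14 and WT-A for 10. In 5G2del-B, 24 members lay above their own median over libraries, and in WT-C 2 did. For 26 of 32 members the SD was larger among WT than among 5G2del libraries; this was so for 6731 of the 10358 genes whose mean exceeded 2 log2 CPM. The difference between the highest and the lowest library ran from 0.35 for Pcna to 3.59 for Rad51ap1 on the log2 scale, with a median of 1.01 beside 0.91 for those 10358 genes.

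**Figure D2:**
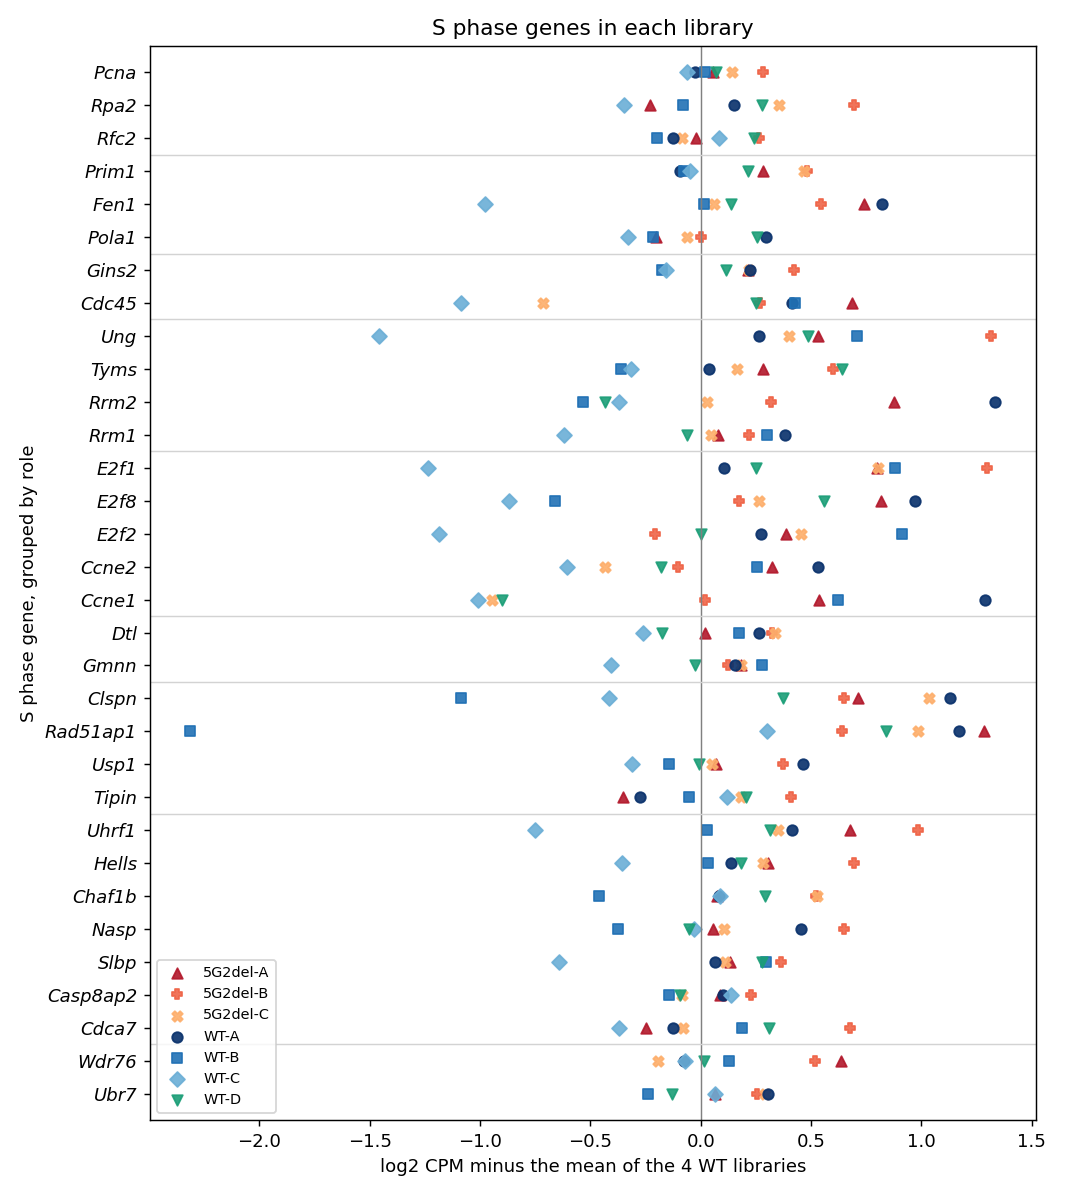
Level of each S phase gene in each library as log2 CPM minus the mean of the 4 WT libraries (x axis), with genes grouped by role (grey lines) and ordered by p within a role (y axis). WT-C (diamonds) is leftmost for 19 genes and 5G2del-B (plus signs) is rightmost for 14; WT-B is lowest for Rad51ap1.

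Per kilobase of exon (union of the gene's exons in GENCODE M21), the most abundant member in WT was Pcna, at a mean of 6.32 log2 CPM per kb, followed by Usp1 at 4.40, Tipin at 4.29 and Gins2 at 4.09. At the other end were Rad51ap1 at -0.26, E2f2 at 0.03, Clspn at 0.26 and Ccne1 at 0.37 log2 CPM per kb. These 4 were among the 6 members with the widest ranges. Rad51ap1 had 33 expected counts in its lowest library, and Pcna had 6414 in its own.

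Among the enzymes that start and finish DNA strands, Prim1 (chr10:128015168-128030037), the catalytic subunit of primase, had groups that did not overlap. Prim1 measured 5.20, 5.40 and 5.38 log2 CPM in 5G2del and 4.82, 4.84, 4.87 and 5.13 in WT. All 3 5G2del libraries lay above all 4 WT libraries, with WT-D nearest to them. Its log2 fold change was 0.41 ± 0.17 (SE; 1.33-fold; limma-trend unadjusted p = 0.0341, adjusted p = 0.989). It ran from 0.38 to 0.48 with 1 library left out, so no left-out library moved it by 1.5 times. Pola1 (chrX:93304767-93632155), which encodes the catalytic subunit of DNA polymerase alpha, the enzyme that primase works with, was 5.13, 5.34 and 5.27 in 5G2del and 5.63, 5.12, 5.00 and 5.59 in WT. The 5G2del values lay inside the WT range, and the log2 fold change was -0.09 ± 0.20 (SE), with 0.01 without WT-A and -0.20 without WT-C. Fen1, the flap nuclease, ranged from 4.19 to 4.88 in 5G2del and from 3.16 to 4.95 in WT (log2 fold change 0.45 ± 0.36, SE; 0.12 without WT-C, 0.72 without WT-A). Of the exon bases of Fen1, 78.8% overlap an antisense gene on the other strand, Gm10143, which had a mean of -2.68 log2 CPM; strand is not stated, so reads of the pair cannot be told apart.

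The clamp and the proteins that load it or coat single strands were higher on average in 3 of 3, with log2 fold changes of 0.05 to 0.27. Pcna (chr2:132249162-132253314), the sliding clamp, measured 7.64, 7.87 and 7.73 in 5G2del and 7.56, 7.61, 7.52 and 7.66 in WT. Only 5G2del-A fell within the WT range, and the log2 fold change was 0.16 ± 0.13 (SE; 0.10 without 5G2del-B). Reads of Pcna may be shared with its processed pseudogene Pcna-ps2, which is also in the table. Rpa2, a subunit of the single-strand binding protein RPA, ranged from 4.79 to 5.71 in 5G2del and from 4.67 to 5.29 in WT (log2 fold change 0.27 ± 0.24, SE; 0.06 without 5G2del-B, 0.52 without 5G2del-A).

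Rfc2 encodes a subunit of the clamp loader and is the member nearest to Cux1. It lies on chr5:134581366-134601805, 1.65 Mb from Cux1 (chr5:136248135-136567490). Rfc2 measured 5.78, 6.07 and 5.72 in 5G2del and 5.68, 5.61, 5.88 and 6.05 in WT. The groups overlapped throughout, and the log2 fold change was 0.05 ± 0.17 (SE), with values between -0.05 (without 5G2del-B) and 0.13 (without WT-D). Part of Rfc2 (15.1% of its exon bases) overlaps Lat2 on the other strand.

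The helicase members were Gins2 and Cdc45. Gins2 (chr8:120578633-120589304), a GINS subunit, was at 6.34, 6.55 and 6.35 in 5G2del and at 6.35, 5.95, 5.97 and 6.24 in WT. WT-A matched the lower 5G2del libraries and the other WT libraries lay below, for a log2 fold change of 0.29 ± 0.16 (SE; limma-trend unadjusted p = 0.104). Of the exon bases of Gins2, 67.3% overlap Gse1 on the other strand, which had a mean of 5.68 log2 CPM, so the 2 genes' reads cannot be told apart where they overlap. Cdc45 ranged from 2.37 to 3.77 in 5G2del and from 2.00 to 3.51 in WT, with a log2 fold change of 0.08 ± 0.44 (SE) that ran from -0.28 without WT-C to 0.48 without 5G2del-C.

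Genes that supply nucleotides or remove uracil from DNA were higher on average in all 4 cases and none passed the test. Ung (chr5:114130386-114139323), the uracil-DNA glycosylase, measured 4.27, 5.05 and 4.14 in 5G2del and 4.01, 4.45, 2.28 and 4.23 in WT. WT-C lay far below the other 6 libraries, which overlapped. The log2 fold change of Ung was 0.75 ± 0.46 (SE; limma-trend unadjusted p = 0.135), 0.26 without WT-C and 0.47 without 5G2del-B. Tyms (chr5:30058202-30073617), thymidylate synthase, was at 5.06, 5.38 and 4.95 in 5G2del and 4.82, 4.42, 4.47 and 5.42 in WT. Its highest library was WT-D and its lowest WT-B, and the log2 fold change was 0.35 ± 0.25 (SE; 0.56 without WT-D, 0.22 without 5G2del-B, 0.23 without WT-B). Rrm2, the small subunit of ribonucleotide reductase, was highest in WT-A at 5.49 and between 3.62 and 3.78 in the other WT libraries, with 4.18 to 5.03 in 5G2del (log2 fold change 0.41 ± 0.42, SE; 0.85 without WT-A, 0.17 without 5G2del-A). Rrm1, the large subunit, was lowest in WT-C at 5.51 and between 6.07 and 6.51 elsewhere (log2 fold change 0.11 ± 0.23, SE; -0.09 without WT-C, 0.24 without WT-A).

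E2F factors and cyclin E genes were higher on average in 3 of 5. E2f1 (chr2:154559407-154569892), an activating E2F, measured 4.03, 4.53 and 4.04 in 5G2del and 3.34, 4.11, 2.00 and 3.49 in WT. The 5G2del libraries were close together, WT-B lay within their range and WT-C far below it. The log2 fold change of E2f1 was 0.97 ± 0.42 (SE; 1.95-fold; limma-trend unadjusted p = 0.0423, adjusted p = 0.989), and 0.55 without WT-C. E2f2, another activator, ranged from 2.11 to 2.77 in 5G2del and from 1.13 to 3.23 in WT (log2 fold change 0.21 ± 0.47, SE; -0.18 without WT-C, 0.51 without WT-B). E2f8, a repressing E2F, ranged from 4.13 to 4.77 and from 3.09 to 4.93 (0.42 ± 0.42, SE; 0.13 without WT-C, 0.74 without WT-A). Ccne1 (chr7:38097984-38107534), which encodes cyclin E1, measured 2.32, 1.80 and 0.83 in 5G2del and 3.07, 2.40, 0.77 and 0.88 in WT. High and low libraries occurred in both groups, and its log2 fold change of -0.13 ± 0.63 (SE) became 0.30 without WT-A, 0.28 without 5G2del-C and -0.47 without WT-C. Ccne2, cyclin E2, had -0.07 ± 0.33 (SE), at 0.11 without 5G2del-C or WT-A and -0.27 without 5G2del-A or WT-C.

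Gmnn encodes geminin, which blocks relicensing of origins, and Dtl encodes the adaptor of the CRL4 ubiquitin ligase that clears CDT1 at PCNA. Dtl (chr1:191537356-191575544) was at 5.75, 6.05 and 6.07 in 5G2del and 5.99, 5.90, 5.47 and 5.56 in WT. WT-C and WT-D lay below the 5G2del libraries and WT-A and WT-B among them, for a log2 fold change of 0.23 ± 0.18 (SE; 0.14 without WT-C). Gmnn ranged from 3.68 to 3.73 in 5G2del and from 3.15 to 3.83 in WT (log2 fold change 0.16 ± 0.24, SE; 0.03 without WT-C, 0.26 without WT-B).

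Fork protection and repair genes were higher on average in 4 of 4. Clspn (chr4:126556935-126593903), encoding claspin, the mediator that lets ATR activate CHK1, measured 3.82, 3.76 and 4.14 in 5G2del and 4.24, 2.02, 2.69 and 3.48 in WT. WT-A was the highest of all 7 libraries and the other WT libraries lay below every 5G2del library. The log2 fold change of Clspn was 0.80 ± 0.45 (SE; limma-trend unadjusted p = 0.100) and 0.44 without WT-B. Rad51ap1, a homologous recombination gene, ranged from 2.65 to 3.29 in 5G2del and from -0.31 (WT-B) to 3.18 in WT, so its log2 fold change of 0.97 ± 0.70 (SE) was 0.20 without WT-B. Usp1, the ubiquitin hydrolase that acts on PCNA and FANCD2, had 0.16 ± 0.20 (0.06 without 5G2del-B or WT-C, 0.32 without WT-A), and Tipin, of the TIMELESS fork protection complex, 0.08 ± 0.22 (-0.08 without 5G2del-B, 0.30 without 5G2del-A).

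Genes of histone supply and chromatin maintenance were higher on average in 7 of 7. Uhrf1 (chr17:56303321-56323486), which recruits DNMT1 to hemimethylated DNA, measured 5.58, 5.89 and 5.25 in 5G2del and 5.32, 4.93, 4.15 and 5.22 in WT. WT-C was lowest, and WT-A lay just above 5G2del-C. The log2 fold change of Uhrf1 was 0.67 ± 0.28 (SE; 1.59-fold; limma-trend unadjusted p = 0.0351, adjusted p = 0.989) and 0.42 without WT-C. Hells (chr19:38930915-38971051), a chromatin remodeller that aids DNA methylation, was at 4.91, 5.30 and 4.89 in 5G2del and 4.74, 4.64, 4.25 and 4.79 in WT. The groups overlapped with CPM recomputed without the mitochondrial ribosomal RNA genes. They did not overlap in the deposited values, where 5G2del-C and WT-D lay nearest to each other. The log2 fold change was 0.43 ± 0.20 (SE, limma-trend unadjusted p = 0.0613). Cdca7, a partner of HELLS, did not share this order: 5G2del-B was highest at 5.91, but 5G2del-A at 4.98 lay below WT-A, WT-B and WT-D (log2 fold change 0.12 ± 0.25, SE; -0.16 without 5G2del-B, 0.30 without 5G2del-A).

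Slbp (chr5:33634952-33652574), whose product binds the stem-loop of histone mRNAs, measured 5.94, 6.18 and 5.92 in 5G2del and 5.88, 6.11, 5.17 and 6.09 in WT. WT-C lay below the other 6 libraries, which overlapped, and the log2 fold change of 0.20 ± 0.23 (SE) was -0.01 without WT-C and 0.12 without 5G2del-B. Chaf1b, a subunit of the chromatin assembly factor CAF-1, ranged from 5.53 to 5.98 and from 4.99 to 5.74 (0.37 ± 0.21, SE; 0.22 without WT-B). Nasp, a histone chaperone, had 0.27 ± 0.23 (0.08 without 5G2del-B, 0.42 without WT-A), and Casp8ap2, the FLASH protein of histone mRNA processing, 0.08 ± 0.16 with a range of 0.37 between libraries, close to that of Pcna. Of the remaining members, Wdr76 (chr2:121506723-121544860), a WD-repeat protein, was at 4.11, 3.99 and 3.28 in 5G2del and 3.40, 3.60, 3.40 and 3.49 in WT. It was the member in which 5G2del-C was lowest of all and the other 5G2del libraries highest (log2 fold change 0.32 ± 0.26, SE; 0.16 without 5G2del-A, 0.58 without 5G2del-C). Ubr7, of the UBR-box family, had 0.20 ± 0.18 (0.12 without WT-B).

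Other genes of the pathway lay the same way in most lists, again with 0 past an adjusted p of 0.05 in limma-trend. In either direction, 3.91% of the whole table lay under an unadjusted p of 0.05. Of 31 replisome partners, 26 had higher means (median log2 fold change 0.21) and 1 was under it, Rnaseh2c, a subunit of the nuclease that removes ribonucleotides from DNA (0.69 ± 0.28, SE). Groups did not overlap for 3 of the 31, Rnaseh2c, Rfc3 at 0.40 and Pold1 at 0.38, all higher. Over the whole table, 2.92% of genes were apart as higher and 2.78% as lower. Of 22 nucleotide supply genes, 20 were higher (median 0.19). Under an unadjusted p of 0.05 were Mthfd2 at 1.75 ± 0.59, the dTMP kinase Dtymk at 0.50 ± 0.21 and the dCMP deaminase Dctd at 0.48 ± 0.21. Groups overlapped for each of these genes. Mthfd2 was low, at 2.43 to 3.11 log2 CPM in 5G2del and -0.40 (WT-B) to 2.46 (WT-A) in WT. Of 17 E2F and RB family genes, 13 were higher (median 0.12). Among these, E2f7, a repressing E2F, was at 3.35 to 3.64 in 5G2del and 3.12, 3.25, 2.28 and 2.55 in WT (0.70 ± 0.31, SE), and Rb1, the brake on E2F activators, at 4.22, 3.91 and 3.66 against 4.88, 4.27, 4.26 and 4.43 (-0.53 ± 0.23, SE). Both were under an unadjusted p of 0.05. Groups did not overlap for 3 genes of this list as higher (E2f7, Cdk2 at 0.42 and Lin37 at 0.90 ± 0.51, SE) and for 1 as lower (Rb1). Lin37 was at 1.08 in WT-B and 3.16 to 3.44 in the other WT libraries, against 3.63 to 3.77 in 5G2del.

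Of 14 genes of replication-coupled chromatin, 13 were higher (median 0.14), with Asf1b, a histone chaperone, lowest in p at 0.89 ± 0.49 (SE). Of 18 checkpoint and ubiquitin partners, 12 were higher (median 0.08), and groups were apart for 1, Atr, as lower (-0.26). Among 15 origin licensing genes 11 were higher (median 0.16), and the 2 with an unadjusted p under 0.05 went opposite ways: Orc1 at 1.02 ± 0.46, and Lrwd1, a partner of the origin recognition complex on chromosome 5, at -0.90 ± 0.26. Groups were apart for Lrwd1, as lower, and for Orc6 (0.39), as higher, beside 2.78% and 2.92% of all genes. The medians moved with single libraries. Without WT-C they were 0.11 for replisome partners, 0.09 for nucleotide supply, 0.07 for origin licensing, 0.03 for the E2F and RB family, 0.10 for chromatin and 0.03 for checkpoint partners. Without 5G2del-B they were 0.13 for replisome partners, 0.04 for nucleotide supply (15 of 22 higher), 0.05 for origin licensing and 0.08 for chromatin. Their highest values with 1 library left out were, in the order given for WT-C, 0.29, 0.30, 0.28, 0.21, 0.20 and 0.15. These lists share no gene with the members, and the same 7 libraries measured all of them.

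G2/M genes separated the libraries in another order than S phase genes. Their mean over 20 genes was 4.95, 4.01 and 4.61 log2 CPM in 5G2del and 5.25, 3.64, 4.11 and 4.29 in WT. Thus 5G2del-B, highest for the S phase members, was next to lowest for G2/M genes, and WT-A was highest for G2/M. The S phase mean minus the G2/M mean was 1.02 in 5G2del-B and 0.90 in WT-B, against -0.30 in WT-A and -0.04 in 5G2del-A, so both extremes occurred in both groups. G2/M genes were higher in 16 of 20 (median 0.18), with Cdk1 at 0.44 ± 0.25, and in 8 of 20 without WT-B, where the median was -0.03.

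**Figure D3:**
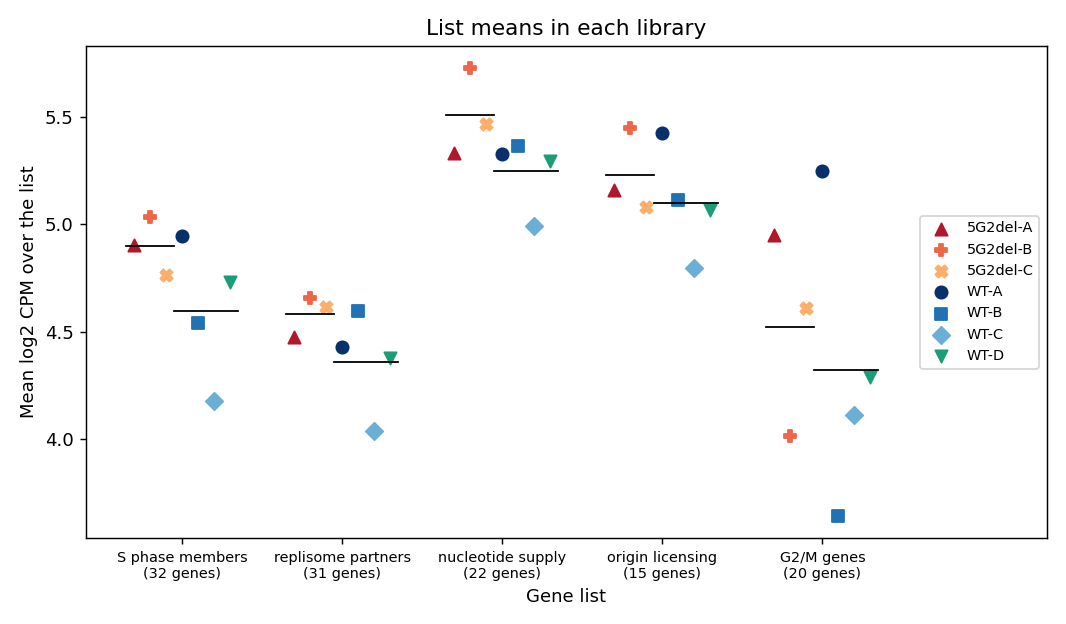
Mean log2 CPM (y axis) of 5 gene lists in each library (symbols), with black lines for the mean of each group. WT-C is lowest for the S phase, replisome, nucleotide and licensing lists, 5G2del-B is highest for these 4, and WT-A and 5G2del-A are highest for G2/M genes.

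Markers of other cell types also differed between libraries. Neutrophil markers (10 of 12 in the table; Mmp8 and Retnlg were not) were high in 5G2del-A, with a sum of 4640 CPM, and in WT-A, with 1482, where the other 5 libraries had 118 to 174. Erythroid markers (11 of 12; Alas2 was not) summed to 57.5 to 120.0 CPM in 5G2del and 90.5 to 294.5 in WT. B lineage markers (6 of 9; Cd79a, Vpreb1 and Pax5 were not) summed to 56.9 to 535.8 CPM in 5G2del and 31.4 to 133.3 in WT. Megakaryocyte markers (5 of 6; Gp1bb was not) summed to 25.2 to 40.1 CPM in 5G2del and 18.4 to 33.5 in WT, and T and NK markers (4 of 7; Cd3e, Cd3d and Cd3g were not) to 49.7 to 82.9 in 5G2del and 19.5 to 52.2 in WT. The S phase mean was high in 5G2del-B, where neutrophil markers were lowest at 118 CPM. It was also high in 5G2del-A and WT-A, where they were highest. WT-A and 5G2del-A were the highest libraries for the G2/M mean as well, at 5.25 and 4.95 log2 CPM. The part of other cells in the S phase and G2/M levels was not tested.

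**Figure D4:**
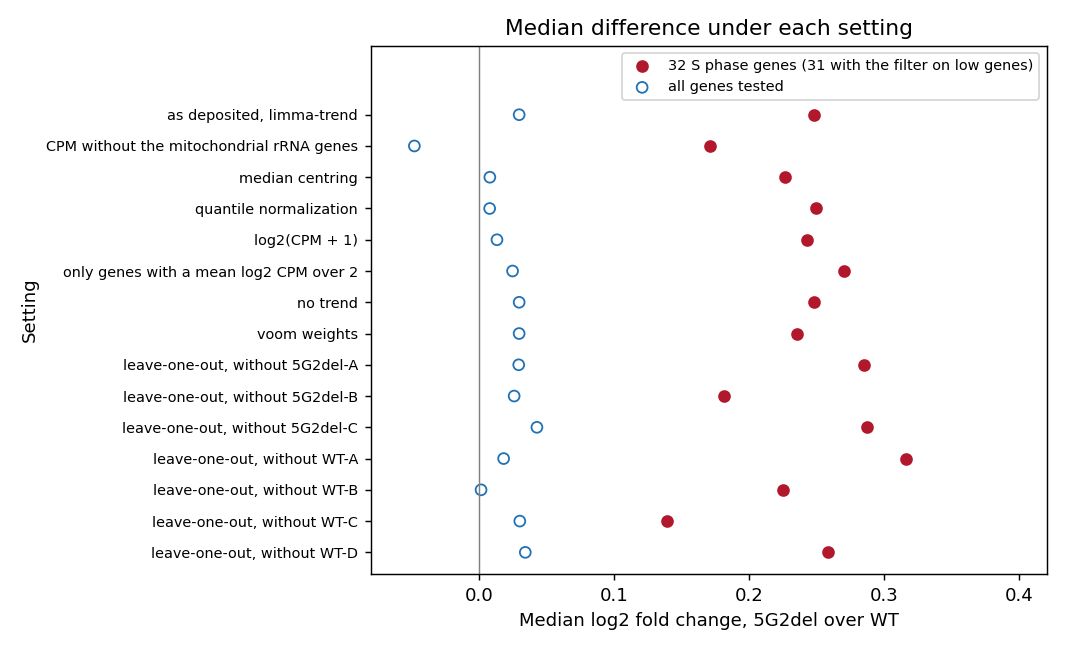
Median log2 fold change, 5G2del over WT (x axis), of the S phase genes (filled) and of all genes tested (open) under each setting (y axis). The filled points run from 0.14 without WT-C to 0.32 without WT-A, each to the right of the open point of its setting. Scalings that shift every gene of a library alike, and no trend, cannot change the gap between filled and open points.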

How the data were processed

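The authors deposited 1 table with log2 CPM for 7 libraries and their own log2 fold change, t score, p-value and q-value per gene. The tools named, per the submitters' processing notes, are STAR (2.7.9a), RSEM (1.3.0) and the authors' limma (3.50.3). The deposited log2 values step back to expected counts on an offset of 0.5 count (71.3% whole within 0.01), so no count model was used. Its annotation and filter are not given in the sources here. The comparison of 3 5G2del with 4 WT libraries used limma 3.58.1 (limma-trend, R 4.3.3) over all 16760 genes, with Benjamini-Hochberg adjustment and no covariate; it was tested on simulated data. Alternatives were 3 other scalings, log2(CPM + 1), a mean log2 CPM over 2, no trend, voom weights and leaving out each library. Members, lists and the rule for genes given in full (unadjusted p under 0.05, groups apart, lowest p of a role, the 2 lowest fold changes, or chromosome 5) were chosen with earlier results of these data known, so lists carry no test. Positions are from GENCODE M21 (mm10), which matched 16748 of the genes by identifier. RSEM splits reads between similar genes, and strand is not stated.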

Additional observations from a re-analysis of the deposited data

Results flagged for a closer look

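In 3 of 40 sets of WT values examined (32 genes and 8 list means), 1 library lay far from the other 3; chance flags about 1 in 20 such sets. Prim1 was at 5.13 log2 CPM in WT-D against 4.82 to 4.87 in the other WT libraries. Rrm2 was at 5.49 in WT-A against 3.62 to 3.78, and Cdc45 at 2.00 in WT-C against 3.33 to 3.51.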

How the results depend on the processing

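The number of genes called over the whole table was 0 by limma-trend, 1 without the trend, and 0 to 1 with 1 library left out. The 29 members with a higher mean came to 24 to 31 with 1 library left out, and their median log2 fold change to between 0.14 and 0.32. The count of 3 members below an unadjusted p of 0.05 was 0 without the trend and 0 with CPM recomputed without the mitochondrial ribosomal RNA genes. It was 0 to 4 with 1 library left out, and the genes changed too. They were Prim1, Chaf1b and Rpa2 without 5G2del-A, and Uhrf1 and Wdr76 without 5G2del-C. Without WT-A they were Uhrf1, Clspn, Fen1 and Rrm2, and without WT-D Prim1, Uhrf1 and Tyms. Only without WT-B were they again Prim1, Uhrf1 and E2f1. The 2 members whose groups did not overlap came to 1 (Prim1, not Hells) with the recomputed CPM, where 1.56% of all genes were apart as higher. With 1 library left out the count was between 2 and 9, where 4.71% to 7.23% of all genes were apart as higher. With the recomputed CPM, which also drops the library sizes behind the deposited CPM, the sign turned for Casp8ap2 (-0.0016) and Rfc2 (-0.024). With 1 library left out, the sign turned for 10 members and for the G2/M median (-0.034 to 0.49). These were Slbp (-0.012 to 0.30), Rrm1 (-0.091 to 0.24), Cdca7 (-0.16 to 0.30), E2f2 (-0.18 to 0.51), Pola1 (-0.20 to 0.010), Tipin (-0.083 to 0.30), Rfc2 (-0.052 to 0.13), Ccne2 (-0.27 to 0.11), Ccne1 (-0.47 to 0.30) and Cdc45 (-0.28 to 0.48). The other 22 were higher in every such run. The cause was not tested. No paired analysis was possible because the serial numbers in the column names match no sample's label, and the replicate numbers stand only in the labels. Depth limits the lowest genes, since 3 counts were 0.0538 to 0.0860 CPM. No counting intervals are given, since PCR copies of a molecule cannot be recognised.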
